A study of Mus musculus with 24 samples.

Results

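Of the 66251 autosomal H3K27ac peaks found in female myofibers 4 days after the last prednisone injection, 54197 were gains, sharing not even 1 bp with a peak of vehicle-treated females. The 20561 peaks described here, called kept gains, were chosen by their presence: they are the gains that also overlapped a peak at both day 6 and day 8. They made up 31.0% of the 66251 peaks, and the whole day 4 list held 67503 peaks with the sex chromosomes and unplaced contigs. Because presence or absence in the 4 female lists chose them, their absence in vehicle and their presence on the later days are not findings.

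The study asked how long the enhancers that appear with once-weekly prednisone last in the muscle of each sex. Adult wild-type C57BL/6J mice received either vehicle (DMSO in phosphate-buffered saline) or weekly intraperitoneal prednisone, and quadriceps were taken 4, 6 or 8 days after the fifth weekly injection. Vehicle was also given to the prednisone groups on the days between their weekly injections. Myofibers were freed with collagenase II and filtered, so the material was enriched for muscle fibers but not sorted by cell type. Each of the 8 groups (female and male vehicle, day 4, day 6 and day 8) had 2 H3K27ac libraries and 1 input library. Each group had a single peak list, so no comparison between groups has a replicate spread or a test. Shares are given with Wilson 95% confidence intervals (CI), which cover counting error only.

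H3K27ac is an acetyl mark on histone H3 that sits at active promoters and active enhancers, the distal sequences from which transcription factors raise the expression of a gene. Prednisone is converted in the body to prednisolone, which binds the glucocorticoid receptor (GR), a nuclear receptor that binds DNA directly and also acts through other factors. In muscle, MEF2 factors and the myogenic factors that bind E-boxes direct the fiber program. GR is known there for genes of lipid use, insulin signaling, the clock and protein breakdown.

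The windows below show what such regions look like, each the central 300 bases of a kept gain, in mm10 and on the plus strand, read from the RefSeq copy of that build. The first 4 are the highest-scoring kept gains outside promoters that lay nearest to a gene of the lists described later and held a match to the MEF2 consensus, which is in capitals.
Irs1, chr1:82200015-82200314: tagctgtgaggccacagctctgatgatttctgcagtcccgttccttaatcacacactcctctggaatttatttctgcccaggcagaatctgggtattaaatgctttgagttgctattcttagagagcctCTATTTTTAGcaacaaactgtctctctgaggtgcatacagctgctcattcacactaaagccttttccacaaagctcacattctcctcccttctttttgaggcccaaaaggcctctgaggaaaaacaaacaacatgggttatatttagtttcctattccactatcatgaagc
Rara, chr11:98930918-98931217: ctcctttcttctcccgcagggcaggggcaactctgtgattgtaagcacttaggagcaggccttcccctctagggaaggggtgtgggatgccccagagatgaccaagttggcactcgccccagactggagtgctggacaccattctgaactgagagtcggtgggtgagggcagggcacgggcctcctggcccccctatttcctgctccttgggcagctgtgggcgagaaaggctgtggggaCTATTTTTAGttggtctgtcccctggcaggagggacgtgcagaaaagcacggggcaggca
Hdac4, chr1:92075587-92075886: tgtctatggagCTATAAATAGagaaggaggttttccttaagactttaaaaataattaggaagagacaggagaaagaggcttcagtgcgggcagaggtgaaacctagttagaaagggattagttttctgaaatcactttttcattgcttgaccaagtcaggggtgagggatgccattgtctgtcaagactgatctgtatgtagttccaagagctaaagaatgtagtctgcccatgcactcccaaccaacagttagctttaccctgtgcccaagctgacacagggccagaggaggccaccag
Glul, chr1:153990599-153990898: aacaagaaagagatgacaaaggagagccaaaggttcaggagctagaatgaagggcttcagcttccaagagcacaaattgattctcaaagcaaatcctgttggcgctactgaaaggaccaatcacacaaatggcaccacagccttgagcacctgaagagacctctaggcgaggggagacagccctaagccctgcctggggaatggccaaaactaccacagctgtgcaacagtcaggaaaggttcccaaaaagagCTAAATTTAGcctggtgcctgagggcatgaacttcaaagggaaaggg
Among the same remaining windows, the next is the one with the highest score that held the GR consensus ACANNNTGT, in capitals. Here N is any base.
Foxo3, chr10:42230375-42230674: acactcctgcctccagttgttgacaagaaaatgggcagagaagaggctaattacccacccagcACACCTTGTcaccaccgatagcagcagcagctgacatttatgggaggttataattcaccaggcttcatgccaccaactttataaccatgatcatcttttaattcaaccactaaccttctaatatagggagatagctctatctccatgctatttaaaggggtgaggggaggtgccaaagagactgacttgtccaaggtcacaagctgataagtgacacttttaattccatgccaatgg
From the same remaining windows, the last pair are the kept gains with the highest score at promoters of genes of the lists. Their matches to GGGCGG or its reverse complement, a sequence bound by SP and KLF factors, are in capitals.
Akt1, chr12:112674721-112675020: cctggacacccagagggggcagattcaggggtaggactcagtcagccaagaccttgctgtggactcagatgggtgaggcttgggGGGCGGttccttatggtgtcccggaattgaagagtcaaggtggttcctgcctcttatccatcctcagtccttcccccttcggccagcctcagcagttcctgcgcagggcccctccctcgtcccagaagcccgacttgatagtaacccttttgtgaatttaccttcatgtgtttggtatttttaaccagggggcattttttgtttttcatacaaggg
Sirt1, chr10:63339459-63339758: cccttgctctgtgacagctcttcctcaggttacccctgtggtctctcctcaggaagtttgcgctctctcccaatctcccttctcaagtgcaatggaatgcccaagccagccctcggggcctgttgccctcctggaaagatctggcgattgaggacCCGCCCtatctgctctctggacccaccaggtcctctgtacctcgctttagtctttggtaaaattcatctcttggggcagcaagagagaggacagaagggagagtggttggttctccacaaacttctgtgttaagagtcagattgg
A match is a description of the letters in a window and does not show that a factor was bound.

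The peaks of these windows differed in level. Levels are normalized tags per kb, that is, H3K27ac tags scaled to a depth of 10 M and divided by the width of the peak. At day 4 the peaks at Irs1, Hdac4 and Glul lay between the quartiles of all kept gains (11.0 and 14.2 normalized tags per kb), and those at Rara, Foxo3, Akt1 and Sirt1 lay above the upper one. The MEF2-bearing peak at Irs1, an adaptor of the insulin receptor, lay 91.3 kb after the gene's start, in intergenic sequence, and had 12.1, 12.0 and 16.0 normalized tags per kb on days 4, 6 and 8. The peak before Rara, a retinoic acid receptor, had 16.2, 44.2 and 23.7 normalized tags per kb on these days. The intronic peak of Hdac4, a deacetylase that binds and represses MEF2, had 11.2, 29.7 and 12.9. Neither the Hdac4 peak nor the peak 90.8 kb from Glul, which encodes glutamine synthetase, overlapped a peak of any male list, whereas the Rara peak overlapped male vehicle and male day 8 peaks. The GR-bearing peak in an intron of Foxo3, a forkhead factor held out of the nucleus by Akt, had 23.6, 35.5 and 18.6 normalized tags per kb on days 4, 6 and 8.

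The lists differed in depth and length. The depth recovered from the steps between low normalized tag counts ranged from 7.5 M tags (male day 4) to 50.5 M (male day 6), and in females was 27.5 M for vehicle and 49.0, 30.6 and 39.7 M on days 4, 6 and 8. The female vehicle list was the shortest of the female lists, with 38861 peaks against 67503, 123249 and 81696 on days 4, 6 and 8. Its peaks held 7.87% of its tags, and 32.9% of these lay in 1 peak. The corresponding shares of tags in peaks were 11.9%, 47.3% and 25.9% on days 4, 6 and 8. Over all peaks of a list, the median level was 17.9 normalized tags per kb in female vehicle. It was 11.8, 17.3 and 14.7 on female days 4, 6 and 8. In the male lists it was 24.4 in vehicle and 29.2, 11.1 and 14.3 on days 4, 6 and 8. A level is that of a called peak, so levels from lists of unlike depth are not directly comparable. Of the 37614 autosomal vehicle peaks, 37.3% overlapped a day 4 peak, 40.5% a day 6 peak and 41.9% a day 8 peak. How far the depth and length of the vehicle list contribute to the number of gains was not tested. As a check of the labels of sex, a peak lay at Xist, the RNA that silences an X chromosome in females, on the 3 female prednisone days and in 0 of the 4 male lists. The female vehicle list, which defines the gains, had 0 peaks at Xist, and 3.14% of its peaks lay on the X chromosome, against 1.36% to 1.84% on the female prednisone days and 0.434% to 0.681% in the male lists.

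The later presence of the day 4 gains was uneven. Day 6 peaks overlapped 50.6% of the gains and day 8 peaks 43.9%, and 37.9% (CI, 37.5%–38.3%) overlapped both. With each list limited to its 38861 peaks of highest score, the length of the vehicle list, 22.7% of the gains were kept, or 6464 peaks. A further 6873 gains were found at day 6 only, 3215 at day 8 only and 23548 at neither day. The last set, called gone gains, is the main comparison below, together with the 12054 day 4 peaks that overlapped a vehicle peak.

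**Figure D1:**
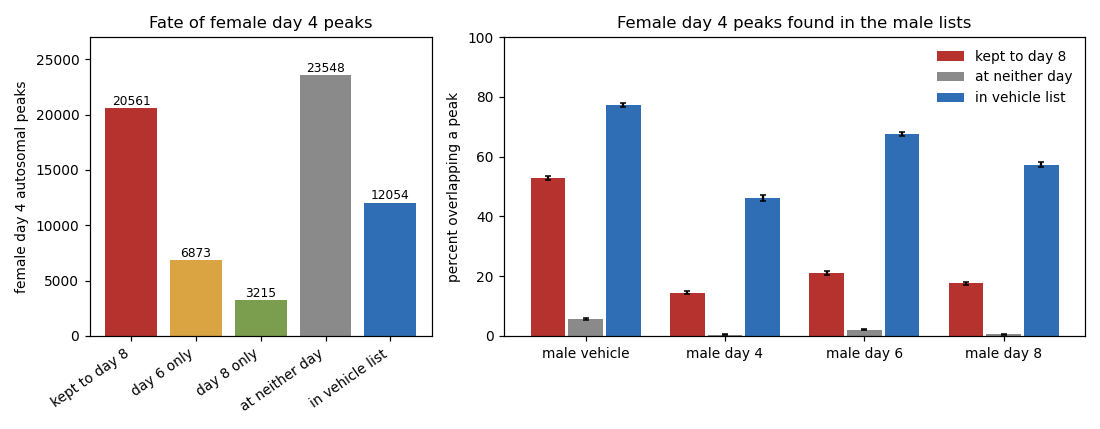
Left, the number of female day 4 autosomal peaks by their presence in the other female lists, with 20561 kept gains. Right, the percent of kept gains, gone gains and vehicle-shared peaks that overlapped a peak of each male list, with Wilson 95% CI as error bars; the bars of the kept gains lie between those of the other two sets in each list.

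Kept gains were wider at day 4 than gone gains. The median width was 797 bp (quartiles 500 and 1350), against 500 bp for gone gains and 1909 bp for vehicle-shared peaks. Peaks of 500 bp, the narrowest in the list, made up 29.1% of kept and 82.2% of gone gains. The median day 4 level was 12.3 normalized tags per kb in kept gains, 11.0 in gone gains and 16.3 in vehicle-shared peaks, and the median fold over input was 4.63, 4.89 and 5.29. In the female vehicle list the median level of its own peaks was 17.9, above the upper quartile of the kept gains at day 4 (14.2). A wider peak has more room to overlap another, so these are descriptions of what the rule favored. Among the 31420 day 4 peaks found on both later days, 65.4% were kept gains. That share went from 92.7% in the tenth with the lowest day 4 level to 13.8% in the tenth with the highest. The part of the depth of the vehicle list in this course was not tested.

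The limits of the rule passed through a continuum. Of the kept gains, 376 overlapped a day 6 or a day 8 peak by 50 bp or less, with a median of 11.4 normalized tags per kb. Just outside, 336 other gains had a peak of each later day within 50 bp but did not overlap both, with a median of 11.3. At the vehicle side, 115 kept gains had a vehicle peak within 50 bp (median level 12.3), and 112 peaks of all 3 days overlapped a vehicle peak by 50 bp or less (median level 12.5). At least 50% of the peak was covered on both later days in 16874 kept gains, and 7531 lay wholly inside peaks of both days.

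Kept gains were found in vehicle-treated males far more often than gone gains. In the male vehicle list 10872 of 20561 kept gains (52.9%; CI, 52.2%–53.6%) overlapped a peak, against 5.60% of gone gains (CI, 5.31%–5.90%) and 77.2% of vehicle-shared peaks. The share over all female day 4 autosomal peaks was 34.9%. These 10872 regions were thus absent from the female vehicle list and present in that of males given no prednisone. The male lists had no part in choosing them.

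The male prednisone lists held fewer of the kept gains. Male day 4 peaks overlapped 14.4% of them (13.2% of all female day 4 autosomal peaks), male day 6 peaks 21.0% (20.6% of all) and male day 8 peaks 17.6% (16.3% of all), shares close to those over all peaks. The corresponding shares of gone gains were 0.442%, 2.06% and 0.531%. The male day 4, 6 and 8 lists were also shorter, with 17482, 32188 and 20499 peaks, than the male vehicle list with 87600. In all, 7597 kept gains (36.9%) were in 0 male lists, 7268 in 1, 3359 in 2, 1572 in 3 and 765 in all 4. The largest single pattern after absence was presence in male vehicle only, with 5461 kept gains.

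The higher share of kept gains in the male vehicle list held at like widths. At 500 bp it was 31.4% of 5977 kept gains (CI, 30.2%–32.6%) against 5.32% of 19356 gone gains (CI, 5.01%–5.64%). Between 1 and 2 kb it was 70.0% of 5926 kept gains against 9.54% of 283 gone gains (CI, 6.64%–13.5%). Above 2 kb it was 86.7% of 1871 kept gains, and the gone gains held 3 such peaks. Vehicle-shared peaks of 500 bp were in male vehicle peaks in 18.6% of 970 cases, below the share of kept gains of that width.

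**Figure D2:**
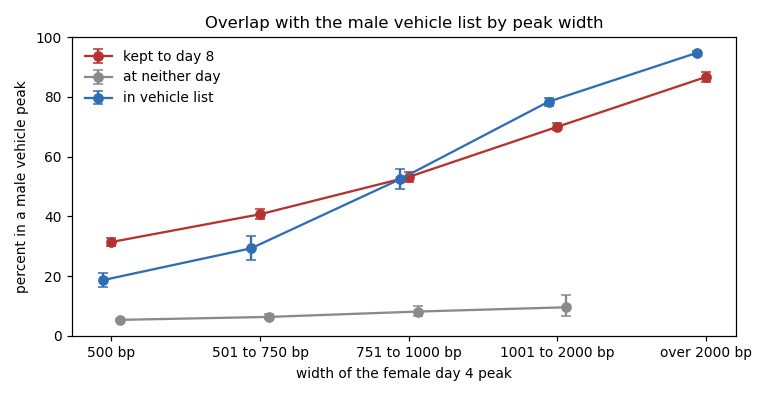
Percent of female day 4 peaks that overlapped a male vehicle peak (y axis), by width of the day 4 peak (x axis), for kept gains, gone gains and vehicle-shared peaks, with Wilson 95% CI; groups under 20 peaks are left out. The kept gains go from 31.4% to 86.7% and the gone gains stay under 10%.

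Kept gains were distributed toward genes. Promoters, counted as the 1 kb upstream of a start plus the first 100 bp of the gene, held 11.6% of kept gains (CI, 11.2%–12.0%), 0.764% of gone gains and 23.3% of vehicle-shared peaks. Introns held 57.1% of kept gains and exons 9.94%, and 19.2% were intergenic, against 43.1% of gone gains. Read the other way, 86.4% of the 2756 gains at promoters were kept, 55.5% of those in exons, 39.1% of those in introns and 23.7% of those between genes, where 37.9% of all gains were kept. The median distance to the nearest protein-coding start was 12.4 kb for kept gains, 40.5 kb for gone gains and 4.92 kb for vehicle-shared peaks. By chromosome, the kept share of gains ranged from 29.1% on chromosome 13 to 45.8% on chromosome 11.

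The number of male lists that held a kept gain went along with its place. Promoters made up 4.98% of the kept gains in 0 male lists and 40.1% of those in all 4. The median day 4 level was 11.5 normalized tags per kb in the first set and 18.1 in the second, and the median distance to a start was 18 kb and 0.342 kb. Kept gains, which the rule places outside vehicle peaks, also lay nearer to them than gone gains. The median gap to the nearest female vehicle peak was 9.16 kb for kept and 21.1 kb for gone gains, and 9.08% of kept and 3.36% of gone gains had one within 1 kb. This was not particular to kept gains: the values were 8.33 kb and 9.95% for gains found at day 8 only. For gains found at day 6 only they were 14.4 kb and 4.44%.

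In level, the kept gains were highest at day 6. The median went from 12.3 normalized tags per kb at day 4 (quartiles 11.0 and 14.2) to 26.0 at day 6 (19.7 and 36.4) and 17.5 at day 8 (14.4 and 22.7). Values at day 6 and day 8 are those of the overlapping peak of that list with the most shared bases. The day 6 level was at least 1.5-fold that of day 4 in 81.3% of kept gains, where 83.8% of all day 4 peaks found on both later days passed that size. At day 8 it was at least 1.5-fold that of day 4 in 44.0%, against 51.3% of all. From day 6 to day 8 it was lower by that factor in 48.1%, against 49.4% of all. The median ratio of day 6 to day 4 was 2.11 in kept gains and 2.52 in the 10859 vehicle-shared peaks of all 3 days, so the course over days was not particular to the kept gains. The share of tags in peaks of the whole list followed the same order of days, and its part in the levels was not tested. The median fold over input had another order, with 4.63, 7.22 and 10.1 at days 4, 6 and 8.

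**Figure D3:**
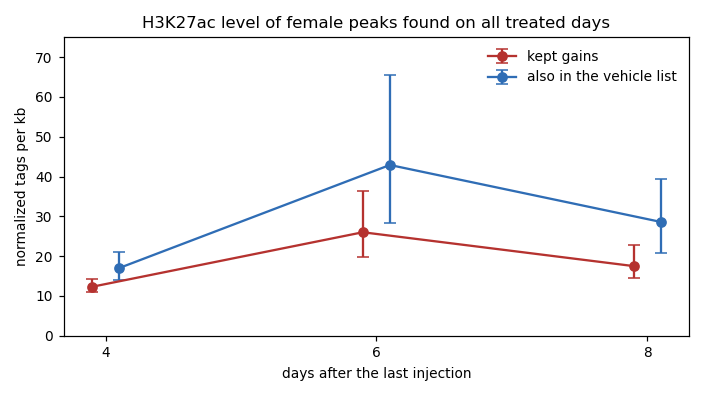
Median H3K27ac level in normalized tags per kb (y axis) against days after the last injection (x axis) for the 20561 kept gains and the 10859 vehicle-shared peaks found on all treated days, with the quartiles as bars. Both sets are highest at day 6, at medians of 26.0 and 42.9.

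On the later days the peaks around the kept gains were wider. The overlapping peaks had a median width of 2139 bp at day 6 and 1714 bp at day 8. Of the 17826 day 6 peaks that held a kept gain, 15894 held 1 and 482 held 3 or more. Day 6 peaks of at least 10 kb held 9.52% of the kept gains. The one with the most spanned 49.5 kb of Dab2ip (chr2:35674722-35724180), which encodes a GTPase-activating protein for Ras, and held 14 kept gains, 11 of them in male vehicle peaks. The next spanned 63.9 kb between Slc66a1 and Capzb, a capping protein of actin filaments, and held 12. A 47.0 kb peak from Lsp1 to Tnnt3, the fast skeletal troponin T, held 10, all in male vehicle peaks. A 23.0 kb day 6 peak of Septin9, a cytoskeletal GTPase, held 8 and overlapped no female vehicle peak, unlike the others named here.

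The kept gains with the highest day 4 score lay close to gene starts. The findPeaks score is a tag number, not scaled for depth. The top 10 after peaks of high input were set aside included those nearest to Wdr33, Zcchc2, Sik1, Gnai3, Ankrd17, Btbd9, Sertad2, Socs5 and Chchd7, and all 10 lay within 2 kb of a start. The peak at the promoter of Gnai3 (chr3:108145521-108147024), a G protein subunit, had 27.9, 213 and 59.2 normalized tags per kb on days 4, 6 and 8. In males it had 43.2 in vehicle and 39.3, 25.1 and 24.1 on days 4, 6 and 8. Of the 10, 7 were in all 4 male lists and the other 3 in 3 of them.

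Sik1, a kinase that phosphorylates CRTC coactivators and class IIa histone deacetylases, had a kept gain 1.85 kb before its start (chr17:31856280-31859036). Its level was 19.8, 98.0 and 36.4 normalized tags per kb on days 4, 6 and 8, and in males 37.7 in vehicle and 34.1, 16.5 and 19.8 on days 4, 6 and 8. Socs5, a suppressor of cytokine signaling, had 29.0, 45.7 and 35.8 normalized tags per kb in females on days 4, 6 and 8. The 319 kept gains set aside had input in the top 1% of the day 4 list per kb, among them a pair of intergenic peaks on chromosome 17 with day 4 levels of 412 and 175 normalized tags per kb at folds over input of 2.47 and 2.27.

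Among kept gains in 0 male lists, the highest scores were near Kat6a, Gtpbp10, Cpeb1, Palld and Dnmt3a. Kat6a, a histone acetyltransferase, had 20.5, 51.3 and 22.7 normalized tags per kb on days 4, 6 and 8 at an intronic peak 0.879 kb after the start. Dnmt3a, a DNA methyltransferase, had 20.3, 52.5 and 24.1 at a peak 5.61 kb after its start (chr12:3812455-3813081). Cpeb1, a regulator of polyadenylation, had 16.7, 55.6 and 35.9 before its start. Crls1, the cardiolipin synthase of mitochondria, had 18.6, 34.9 and 17.4 at its promoter.

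Of 20021 autosomal protein-coding genes, 8623 (43.1%) were the nearest gene of at least 1 kept gain, and 4559 of them of exactly 1. The genes with the most were Dab2ip (32), Ablim1 (31), Tacc2 (29), Med13l (28), Gse1 (28), Septin9 (27), Rora (26), Zfp36l1 (26), Tbc1d1 (25) and Mn1 (25). Most are long genes or lie in wide gene-poor stretches, which give more room for peaks: Rora spans 734 kb, and 20 of the 26 at Zfp36l1, a gene of 5.25 kb, were intergenic. The shares kept differed among them. At Tacc2, which encodes a coiled-coil protein, 29 of 30 gains were kept, at Gse1 28 of 30 and at Rora, an activator of the clock gene Arntl, 26 of 60. At Tbc1d1, which holds back glucose transporter traffic until phosphorylated, 25 of 45 were kept, and 7 of the 25 were in male vehicle peaks.

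The length covered by peaks around these genes differed between the lists. At Gse1, the nearest peaks covered 2.57 kb in 4 vehicle peaks, 49.3 kb in 33 day 4 peaks, 177 kb in 47 day 6 peaks and 113 kb in 53 day 8 peaks. In males they covered 54.4 kb in vehicle, 14.2 kb at day 4, 6.18 kb at day 6 and 13.4 kb at day 8. The whole female lists covered 26.8 Mb in vehicle and 71.1, 159 and 109.7 Mb on days 4, 6 and 8. The whole male lists covered 66.4 Mb in vehicle and 12.7, 26.7 and 17.0 Mb on those days. The part of these list-wide differences in the coverage at single genes was not tested. Gse1 and Tacc2 were named for their many kept gains, so a low coverage in female vehicle follows from the choice. At Tacc2 the coverage was 7.35 kb in female vehicle and 67.3, 117 and 115 kb on days 4, 6 and 8, with 35.5 kb in male vehicle and 4.92, 14.3 and 6.03 kb on the male days.

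Genes of muscle and glucocorticoid biology were grouped into 9 lists. Each had a share of genes with a kept gain above the 43.1% of all genes, from 66.7% (24 of 36) for lipid uptake, storage and oxidation to 86.7% (26 of 30) for mitochondrial and oxidative regulators. Their genes had median lengths of 12.8 to 89.6 kb, against 16.9 kb for all. The shortest median was that of the GR targets, with a kept gain at 83.3% of genes, and the longest that of the myogenic regulators, with 80.0%. Longer genes have more room for peaks, but the part of length in these shares was not tested. The set of all genes was not limited to those active in muscle. The share of gains kept takes no account of gene number. Against 37.9% of all gains, it ranged from 42.4% (114 of 269; CI, 36.6%–48.4%) for insulin, IGF1 and PI3K-Akt signaling to 57.4% (128 of 223; CI, 50.8%–63.7%) for mitochondrial and oxidative regulators.

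**Figure D4:**
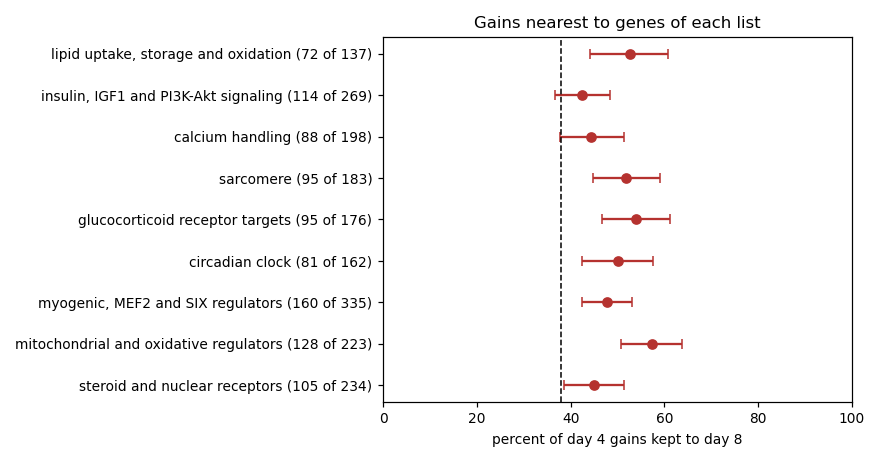
Percent of female day 4 gains kept to day 8 (x axis) among gains nearest to genes of each list (rows, with kept gains of all gains), with Wilson 95% CI; the dashed line is the 37.9% of all gains. The intervals of insulin signaling and calcium handling reach the line, and the other 7 lie above it. Several gains can share a gene, which the intervals do not cover.

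For the oxidative regulators, kept gains clustered at a few genes. Lpin1, which makes diacylglycerol and acts with PGC-1α, had 22 of its 28 gains kept. Rxra, the shared partner of many nuclear receptors, had 18 of 22, with 14 of the 18 in male vehicle peaks. Ppard, the PPAR of oxidative fibers, kept 9 of 9, and Ppargc1b, a coactivator of mitochondrial genes, kept 12 of 18. Its better known relative Ppargc1a kept 3 of 11. The promoter of Tfam, which packages mitochondrial DNA, had a kept gain of 20.5, 94.6 and 39.1 normalized tags per kb on days 4, 6 and 8. Among males it was found in vehicle at 37.5, at day 4 at 24.0 and at day 8, but not at day 6.

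Among lipid genes, 72 of 137 gains were kept (52.6%; CI, 44.2%–60.7%). Many of these lay at 2 genes, Lpin1 (22 of 28), which is also in the list of oxidative regulators, and Srebf1. The median gene of the lipid list had 1 kept gain. Besides Lpin1, Srebf1, the master factor of lipid synthesis, kept 12 of 18 and Fabp3, the fatty acid-binding protein of muscle, 6 of 7. The widest at Fabp3 (chr4:130306828-130311940) had 13.5, 34.1 and 31.3 normalized tags per kb on days 4, 6 and 8, and was in all 4 male lists at 30.7, 21.9, 14.2 and 20.5. The fatty acid transporter Cd36 kept 0 of 9 gains, Hadhb, of fatty acid oxidation, 0 of 5, and Pdk4, which turns fuel use from glucose to fat, 2 of 9. Acss2, an acetyl-CoA synthetase, had the highest-scoring kept gain of the list, with 21.4, 51.9 and 39.6 normalized tags per kb on days 4, 6 and 8.

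In insulin and PI3K-Akt signaling the kept share differed from gene to gene. The kinases Akt1 and Akt2 kept 6 of 6 gains each, while the adaptor Irs1 kept 2 of 18, Pik3r1, the regulatory subunit of PI3K, 10 of 30, and Irs2 9 of 22. These counts rest on few peaks a gene. The kept gain at the Akt1 start (chr12:112674427-112675314) had 21.9, 35.6 and 26.4 normalized tags per kb on days 4, 6 and 8. In males it had 32.5 in vehicle and 30.7, 15.8 and 13.1 on days 4, 6 and 8, so it was missing in female vehicle only. The medians over all peaks of these male lists were 24.4 in vehicle and 29.2, 11.1 and 14.3 on the male days. The other 5 kept gains of Akt1 lay within 8.35 kb after the start, at 9.47 to 18.6 normalized tags per kb at day 4. All 6 fell within 1 day 6 peak.

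**Figure D5:**
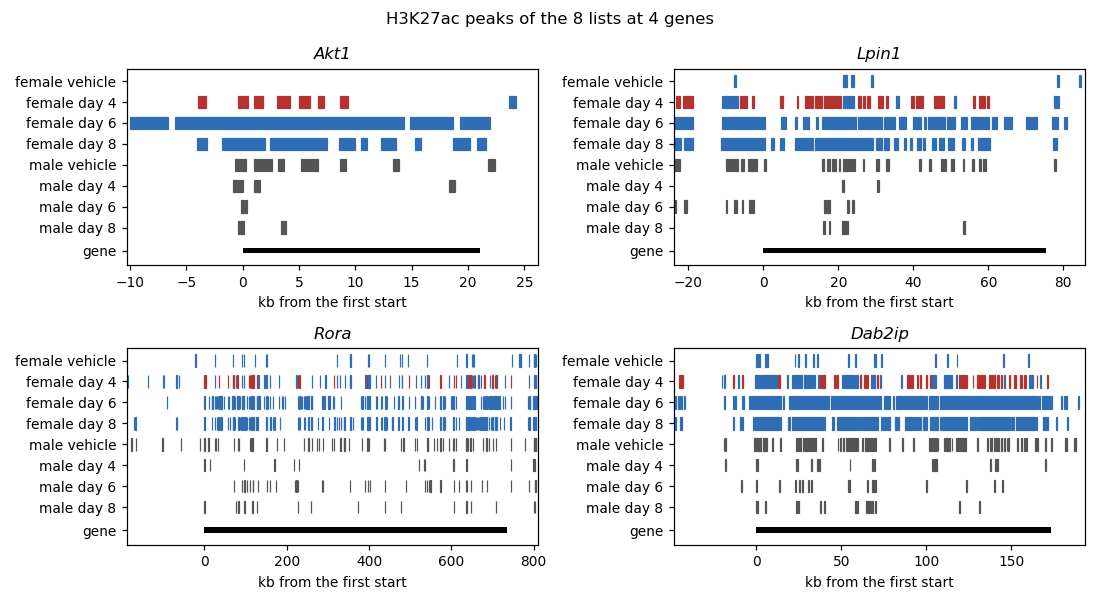
Peaks of the 8 lists (rows) along Akt1, Lpin1, Rora and Dab2ip, as distance in kb from the first start in the direction of transcription (x axis), with kept gains of the day 4 list in red, other female peaks in blue, male peaks in gray and the gene as a black bar. No female vehicle peak is drawn at Akt1 (the red peak before its start is nearest to another gene), and at Lpin1, Rora and Dab2ip the red peaks are spread along the gene between the vehicle peaks.

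Of the other genes at which GR binding was assayed in the study, Pik3ca, the catalytic subunit of PI3K, had 4 kept gains of 9, all within its introns 12.1 to 20.4 kb after the start and in 0 male vehicle peaks. Esr1, estrogen receptor α, had 3 of 7. Its peak 0.403 kb after a start (chr10:4611859-4612925) had 14.9, 32.2 and 18.9 normalized tags per kb on days 4, 6 and 8, with 20.8 in male vehicle. Slc27a1, a fatty acid transport protein, kept 2 of 2, both in male vehicle peaks, and Tnnt1, the slow troponin T, kept 1 of 1. Fkbp5, a classic GR target that restrains the receptor, kept 2 of 5, at 11.0 and 10.6 normalized tags per kb at day 4, neither in a male list. Cidea, a lipid droplet protein, kept 1 of 5. Cidec and Tnnc1 had 0 gains, and Pik3c2a and Cacna1h kept 0 of 2 each.

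GR targets as a list kept 95 of 176 gains (54.0%; CI, 46.6%–61.2%). Zbtb16, a zinc finger factor strongly induced by glucocorticoids in many tissues, kept 10 of 11, including a 5016 bp intronic peak with 12.3, 23.7 and 20.0 normalized tags per kb on days 4, 6 and 8. Errfi1, an inhibitor of EGF receptor signaling, kept 9 of 11, Cebpb 9 of 12 and Ddit4, an inhibitor of mTORC1, 5 of 6. The muscle ligases Fbxo32 and Trim63, which mark muscle protein for breakdown, kept 3 of 4 and 2 of 2. Tle3, a corepressor, kept 1 of 13, at its promoter.

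Clock genes kept 81 of 162 gains (50.0%; CI, 42.4%–57.6%), 26 of them at Rora. Bhlhe40, a repressor in the clock loop, kept 11 of 16, 10 of them in male vehicle peaks, Arntl 8 of 13 and Per2 4 of 5. The peak at the Per2 start (chr1:91458038-91460228) had 21.5, 38.3 and 26.6 normalized tags per kb on days 4, 6 and 8, and 23.2 in male vehicle with no peak at male day 4. Cry1, a core repressor of the clock, kept 0 of 5 and Nr1d2 0 of 4, while Clock and Dbp had 0 gains.

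Sarcomere genes kept 95 of 183 gains (51.9%; CI, 44.7%–59.0%). Tpm1, a tropomyosin, kept 11 of 18, and Tnnt3 and Ldb3, a Z-disc protein, 4 of 4 each. The giant proteins titin and nebulin kept fewer: Ttn 9 of 23 and Neb 2 of 15. Calcium handling genes kept 88 of 198 (44.4%; CI, 37.7%–51.4%). Cacna1s, the voltage sensor of the T-tubule, kept 8 of 9 and Ryr1, the calcium release channel it opens, 9 of 14, while Ppp3ca, the calcineurin catalytic subunit, kept 3 of 21. Its regulatory subunit Ppp3r1 had a kept gain at 22.9, 67.2 and 41.2 normalized tags per kb on days 4, 6 and 8, in all 4 male lists.

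Myogenic regulators kept 160 of 335 gains (47.8%; CI, 42.5%–53.1%). Hdac4 kept 22 of 27, Tead1, a factor of the Hippo pathway, 15 of 22, Nfatc1, a calcium-driven factor of slow fibers, 15 of 22 and Mrtfb, a coactivator of SRF, 16 of 30. Mef2c kept 6 of 35 and Mef2a 6 of 11. Among nuclear receptors 105 of 234 gains were kept (44.9%; CI, 38.6%–51.3%), with 9 of 9 at Rara, 12 of 24 at Nr3c1, which encodes GR itself, and 2 of 15 at Nrip1, a corepressor of estrogen receptors.

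Markers of other cell types were present beside those of muscle. All 12 myofiber markers were nearest to a kept gain, with 47 of 88 gains kept (53.4%), and so were 11 of 12 endothelial markers, with 61 of 111 (55.0%). Over all genes, 43.1% were nearest to a kept gain, and 37.9% of all gains were kept. Smooth muscle and pericyte markers had 7 of 10 genes, with 18 of 29 gains kept (62.1%; CI, 44.0%–77.3%). Des was counted both in this set and among the myofiber markers. Fibroblast markers had 7 of 12, with 31 of 80 kept (38.8%), and satellite cell markers 7 of 10, with 15 of 50 kept (30.0%). The share kept was thus above that of all gains for myofiber, endothelial and smooth muscle and pericyte markers. It was near or below that of all gains for the fibroblast and satellite cell markers. Many of these gains share a gene, so intervals over gains cannot decide between cell types. Adipocyte markers had 3 of 10 genes, with 4 of 9 gains kept (44.4%; CI, 18.9%–73.3%). Schwann cell and nerve markers had 4 of 10, with 6 of 33 kept (18.2%). Immune markers had 1 of 12, with 1 of 15 kept, and liver and neuron markers, which should be silent here, 3 of 12, with 8 of 34 kept (23.5%). The endothelial receptor gene Kdr had a kept gain 0.546 kb after its start at 16.1, 38.8 and 23.8 normalized tags per kb on days 4, 6 and 8, with 26.6 in male vehicle.

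Promoter peaks of these markers differed between the female lists. The 12 endothelial promoters lay in a peak for 5 genes in female vehicle, 11 at day 4 and 12 at day 6 and day 8, with summed tags of 95.6, 703, 4557 and 1672. In males they did so for 12 genes in vehicle and for 4, 5 and 3 on days 4, 6 and 8. Cdh5, Kdr and Tie1 were among those with no peak in female vehicle. In the female lists, the 12 myofiber promoters lay in a peak for 9, 10, 11 and 10 genes, with summed tags of 337, 1625, 5998 and 5255. Promoters of satellite cell, stromal and nerve markers also lay in peaks for more genes on the prednisone days than in female vehicle. The whole lists covered more sequence on those days too, with 71.1, 159 and 109.7 Mb against 26.8 Mb in female vehicle. The part of this in the counts of marker promoters was not tested. In female vehicle and on days 4, 6 and 8, the 10 satellite cell promoters lay in a peak for 0, 7, 7 and 8 genes, with Pax7 found at day 8 only. The 12 fibroblast promoters did so for 1, 7, 9 and 10 genes, and the 10 smooth muscle and pericyte promoters for 1, 4, 10 and 8. The only smooth muscle and pericyte promoter with a peak in female vehicle was that of Des, which is also a myofiber marker. For the 10 Schwann cell and nerve markers it was 3, 5, 8 and 6, and for the 10 adipocyte markers 1, 2, 3 and 5, with Adipoq at 0 in every list. For the 12 immune markers it was 0, 1, 4 and 2, with Ptprc and Adgre1 at 0 in every list, and for the 12 liver and neuron markers 0, 3, 4 and 0. In bulk chromatin, more nuclei of a cell type, more acetylation per nucleus and a higher share of tags in peaks cannot be told apart. Without the largest peak of each list, that share was 5.28% in female vehicle and 10.9%, 45.5% and 24.7% on days 4, 6 and 8. The part of cell makeup in the kept gains was not tested.

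In sequence, the central 300 bases of kept gains were richer in G and C than those of gone gains, with a mean of 53.1% against 46.0%, and held 8.30 against 3.06 CpG. Repeats covered 11.5% of them and 20.2% in gone gains. Outside promoters the values for kept gains were 52.1% and 6.75 CpG, and for gone gains 46.0% and 3.05. Motifs were searched on both strands, and their shares follow base composition to an unknown extent.

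The MEF2 consensus was found in 161 kept gains, 0.783% (CI, 0.671%–0.913%), against 0.425% of gone gains (CI, 0.349%–0.516%), 1.32% of vehicle-shared peaks and 0.718% of all day 4 peaks. It was in 0.233% of gains found at day 6 only and 1.24% of those found at day 8 only. The E-box CAGCTG, which myogenic factors bind, was in 21.3% of kept gains (CI, 20.7%–21.9%), 16.0% of gone gains, 17.5% of vehicle-shared peaks and 18.5% of all. Gains found at day 6 only had a like share, 21.1%, and those found at day 8 only 16.7%. The GR consensus ACANNNTGT was in 8.00% of kept gains (CI, 7.63%–8.37%), below the 10.3% of gone gains (CI, 9.90%–10.7%), with 8.98% of all. Of the 161 kept gains with a MEF2 match, 19 also held a GR match (11.8%; CI, 7.69%–17.7%), an interval that includes the 8.00% of all kept gains.

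The share with GGGCGG followed the number of male lists. This sequence was in 17.2% of kept gains, 3.04% of gone gains and 11.7% of all day 4 peaks, and outside promoters in 12.5% and 3.03% of kept and gone gains. It was in 9.98% of kept gains in 0 male lists and 50.6% of those in all 4. The E-box went the other way, from 21.9% (CI, 21.0%–22.9%) to 15.0% (CI, 12.7%–17.7%). The share at promoters rose from 4.98% to 40.1% over the same sets, and its part in the shares of both sequences was not tested. The ETS sequence CCGGAAGT was in 1.21% of kept and 0.263% of gone gains (0.995% of all), and outside promoters in 0.633% and 0.265%. The AP-1 sequence TGANTCA was in 8.48% and 9.66% (8.91% of all), FOXO TGTTTAC in 3.41% and 4.23% (3.88% of all), and TEAD GGAATG in 15.2% and 17.2% (15.9% of all).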

How the data were processed

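H3K27ac ChIP-Seq of quadriceps myofibers comprised 16 H3K27ac and 8 input libraries. Reads were trimmed by the authors using homerTools and mapped to mm10 by Bowtie2 (version 2.2.6 in the submitters' processing notes). The authors then called peaks with HOMER findPeaks in histone style against input. They deposited 8 peak lists, 1 per group. The way the pair of libraries was merged is not given in the sources used here. The normalized tag count and the input tags of a peak are a signal that the authors deposited, the former scaled to a depth of 10 M tags. The findPeaks score and the ratio of H3K27ac to input tags (fold over input) were used as deposited. The authors' p-values were not used.

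Lists were assigned to groups by the sex, treatment and day in their labels. Kept gains and all gene lists were chosen with earlier results of these data known. Presence was an overlap of 1 bp. Peaks were classed by the position of their midpoint in RefSeq annotation (GRCm38.p6, the same assembly as mm10), using its 45756 curated transcripts, and the nearest gene was that of the nearest protein-coding start. The genes named were those nearest to the 10 kept gains of highest day 4 score (after leaving out the top 1% of input per kb), the 10 genes with most kept gains, up to 4 genes per list by score, and genes assayed for GR binding in the study. Other genes of the lists, the highest-scoring kept gains of 0 male lists and the widest day 6 peaks were chosen after their values were seen. Some genes that these rules select are not reported here. Motifs were sought in the central 300 bp. Alternatives for overlap, gap, list length, fold and input, and one overlap rule chosen after seeing the data, are given in the closing section. On simulated lists 3000 of 3000 planted fates were recovered, and covered bases were the same as from bedtools 2.31.1. Python 3.11.15, numpy 2.4.6, pandas 2.3.3, pysam 0.24.0 and matplotlib 3.10.9 were used.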

Additional observations from a re-analysis of the deposited data

How the results depend on the processing

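Limiting each female list and male vehicle to the 38861 peaks of highest score left 6464 kept gains, 22.7% of the gains, with 17.3% of them at promoters and 44.8% in a male vehicle peak, where gone gains had 6.88%. Counting a peak as shared only when 50% of the day 4 peak was covered, in the vehicle, later and male vehicle lists alike, gave 61899 gains, since some overlap with vehicle was then allowed, with 16.7% of kept gains at promoters and 43.2% in male vehicle peaks. With that requirement on the later days only, an alternative chosen after seeing the data, 31.1% of gains were kept, with 13.5% at promoters and 58.0% in male vehicle peaks. Requiring a fold over input of 4 kept 34.8% of gains, with 13.8% at promoters, and requiring no vehicle peak within 1 kb kept 36.7%. Within 2 kb of a start lay 26.1% of kept gains, a wider definition of a promoter by construction. In the central 500 bp 1.30% had a MEF2 match, in a longer window by construction. Apart from these, the causes were not tested. The number of kept gains stayed within 1.5 times under the overlap, gap, fold and input settings. The MEF2 share stayed within its interval under all other settings, and leaving out peaks of high input moved no share beyond its interval. Leaving out a library could not be run, since each list pools a group. No paired analysis was possible because the lists carry no replicate numbers.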
